A study of Caenorhabditis elegans with 14 samples.

Results

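The erh-2(ust101) mutant of Caenorhabditis elegans was compared with the control strain n2 in small RNA libraries made with a decapping step. Each strain had 1 such library, so the comparison uses 2 of the 14 libraries of the series, taken by their labels. Both strains were synchronised, kept at 20 °C on Escherichia coli OP50 and collected as late young adults. Their RNA was dephosphorylated with calf intestinal phosphatase, decapped with Tobacco Decapping plus 2 (TDP2), and cloned at 17 to 30 nucleotides. The label n2 is that of the standard wild-type laboratory strain. The labels name the ust101 allele without describing its lesion, and the mutant is therefore 1 strain of unstated molecular nature. The other TDP2 libraries serve as a scale of variation: tofu-6 alleles it20, ust94, ust95 and yt2, 1 library each, and 1 library each of pics-1(tm2417) and prg-1(n4503). No label gives any of these strains a further mutation or a treatment of the animals. Reads assigned to a feature came to 13469619 in erh-2 and 9310418 in control.

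The small RNAs that bind the Piwi protein PRG-1 are called piRNAs. In the worm each one is transcribed as a short capped precursor, which loses its cap and first bases, is trimmed at the 3′ end by PARN-1 and is methylated there by HENN-1. The PICS complex named in the series title joins ERH-2 with TOFU-6 and with PICS-1, whose gene is listed as pid-3; ERH-2 is a worm homolog of the enhancer of rudimentary protein. PID-1 and TOST-1 are alternative partners of the complex, tied to precursor processing and to chromosome segregation. Decapping makes capped precursors clonable. Mature piRNAs and microRNAs start with a monophosphate, which the phosphatase step is meant to remove. Antisense small RNAs made by RNA-dependent RNA polymerases, known as 22G-RNAs, start with a triphosphate and silence or license germline messages.

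The erh-2 gene itself had sense reads in both libraries. Sense reads of erh-2 numbered 78 in the erh-2 library and 53 in control, a ratio of 1.02 in reads per 1000000 assigned reads (RPM; 95% counting interval 0.709 to 1.47). Reads antisense to erh-2 numbered 4 in the mutant and 63 in control, a ratio of 0.0439 (0.0116 to 0.118), although the 4 tofu-6 alleles ranged from 0.963 to 33.7 RPM there. With edgeR's quasi-likelihood test on all 8 TDP2 libraries and Benjamini-Hochberg adjustment, neither strand passed (log2 change 0.46 ± 1.20 SE, adjusted p = 0.852, and −4.03 ± 1.44, adjusted p = 0.283). The counts are per gene and cannot show whether an altered stretch of erh-2 had reads.

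Mature piRNA reads were fewer in erh-2 and precursor reads were not. The mature class took 0.0380% of assigned reads in erh-2 and 0.171% in control, a ratio of 0.222 (0.215 to 0.2295), and pics-1 and prg-1 lay below erh-2 (0.0293% and 0.0259%). Precursors made up 0.217% in erh-2 and 0.177% in control, a ratio of 1.23 (1.207 to 1.254). MicroRNAs made up 0.810% in erh-2 and 8.35% in control, a ratio of 0.0970, and all 4 tofu-6 alleles lay between the 2 libraries (1.635% to 4.10%). Without TDP2 the direction was the opposite, with 9.09% microRNA in erh-2 and 4.01% in control, a ratio of 2.27. The mature piRNA share was lower in erh-2 there too, but by less, with 0.229% in erh-2 and 0.403% in control, a ratio of 0.567. Reads antisense to protein-coding genes made up 7.33% in erh-2 and 15.3% in control, a ratio of 0.480, with the tofu-6 alleles spread from 4.93% to 27.1%. Reads sense to protein-coding genes made up 14.3% in erh-2 and 10.6% in control, a ratio of 1.355. Small nuclear RNAs (snRNAs), the capped RNAs of the spliceosome, made up 16.3% in erh-2 and 5.65% in control, a ratio of 2.89, above the tofu-6 range of 5.44% to 11.7% and below prg-1 at 21.8%. Transfer RNA (tRNA) fragments made up 1.94% in erh-2 and 9.70% in control, a ratio of 0.1998. The intervals cover counting error only, since reads are not independent molecules, and in whole animals fewer cells of a type and less RNA per cell cannot be told apart.

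**Figure D1:**
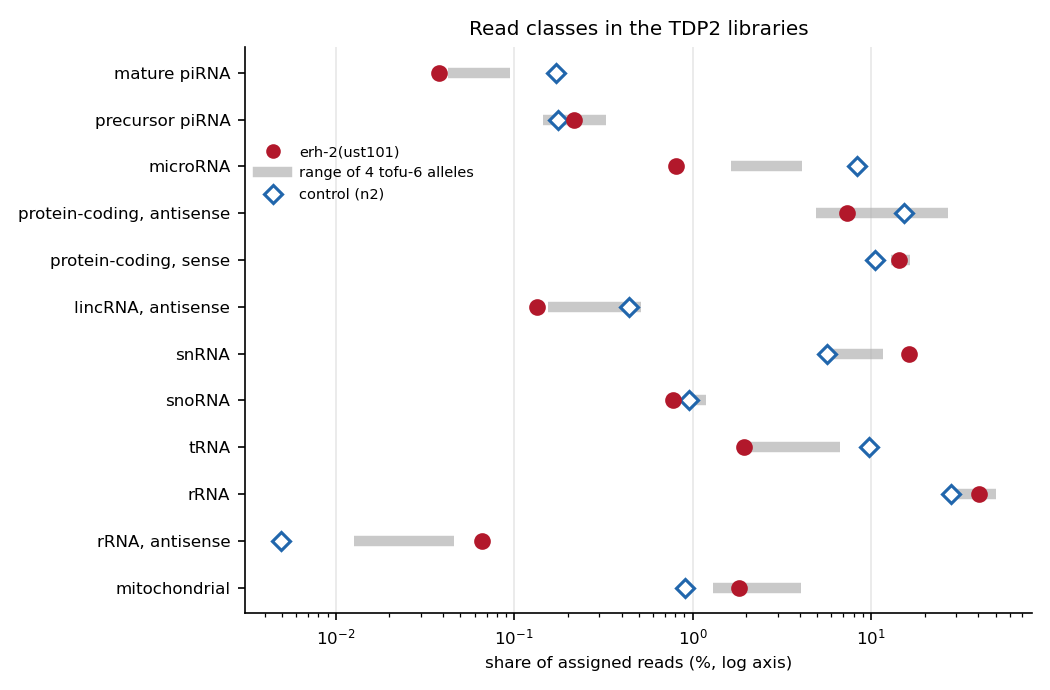
Share of assigned reads (percent, logarithmic axis) of 12 read classes in the erh-2 library (filled circles), across the 4 tofu-6 alleles (grey bars, lowest to highest) and in control (open diamonds). The erh-2 point lies left of control for mature piRNA, microRNA, antisense protein-coding and tRNA reads, and right of control for snRNA and antisense rRNA.

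These shares depend on what the libraries are scaled to. Counted among non-structural reads, which were 40.4% of the erh-2 library and 55.6% of control, every log2 ratio moves up by 0.46. The trimmed mean of M-values (TMM) moves it by 0.44, DESeq2 size factors by 0.33 and microRNA reads by 3.37. The mature piRNA ratio was 0.306 among non-structural reads and turned to 2.29 per microRNA read. The untreated libraries went the other way, with 0.0251 mature piRNA reads per microRNA read in erh-2 and 0.1005 in control. The precursor ratio was 1.69 among non-structural reads and 12.7 per microRNA read, and it turned to 0.426 per snRNA read, a scale added after the data were seen. Antisense reads of protein-coding genes turned from lower to higher per microRNA read as well, with a ratio of 4.95, and tRNA reads with 2.06. No spike-in or other outside standard is named in the labels, so the amount of any class per animal is unknown.

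The balance of precursor to mature reads within a library is free of the scale. The erh-2 library held 5.72 precursor reads per mature piRNA read (5.55 to 5.89) and control held 1.03 (1.01 to 1.06), a ratio of 5.53 (5.33 to 5.74). The tofu-6 alleles held 5.70, 3.41, 2.55 and 4.41 in the order it20, ust94, ust95 and yt2, pics-1 held 10.9 and prg-1 held 6.99. The 7 mutant libraries all exceeded control, and erh-2 stood beside it20, the highest tofu-6 allele. In the untreated libraries of the same strains, where caps are kept, the balance was 0.0917 in erh-2 and 0.0287 in control. Mature piRNAs share their 5′ monophosphate with microRNAs, whose share in the TDP2 library was far below that of the untreated one in erh-2 (0.810% against 9.09%) and above it in control (8.35% against 4.01%). The balance thus moves together with a difference between the libraries in reads of monophosphate RNA, and the part of that difference in the balance was not tested.

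**Figure D2:**
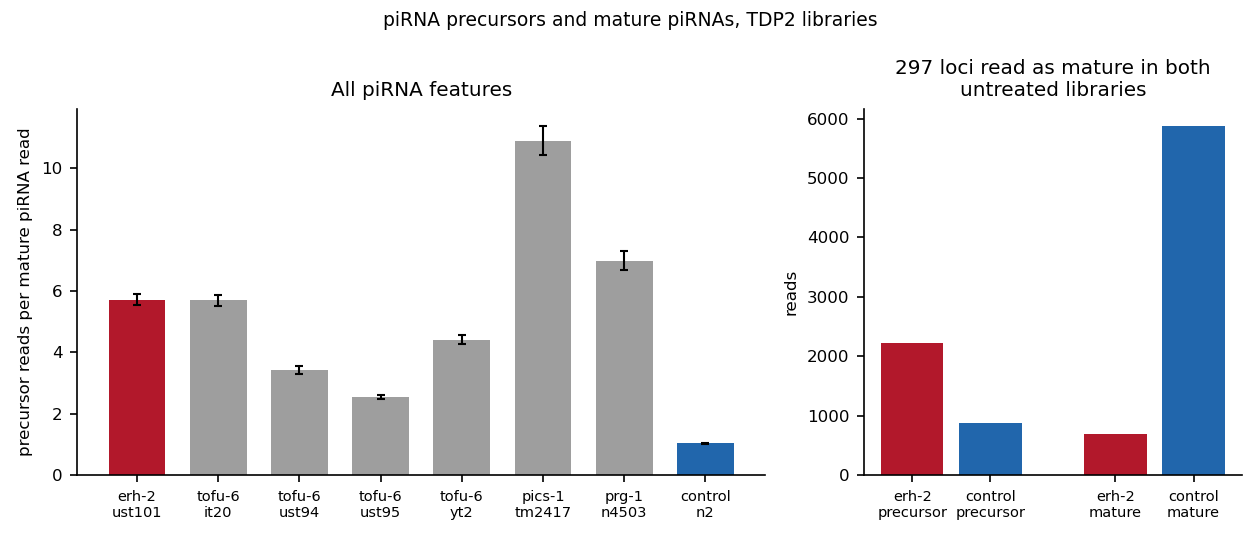
Left, precursor reads per mature piRNA read in each TDP2 library, with 95% counting intervals as error bars: erh-2 stands at 5.72, the tofu-6 alleles at 2.55 to 5.70 and control at 1.03. Right, precursor and mature reads summed over the 297 loci that had 10 or more mature reads in both untreated libraries, in erh-2 (left bar of each pair) and control.

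Loci whose mature piRNA is seen without decapping were summed by themselves. At the 297 loci with 10 or more mature reads in both untreated libraries, erh-2 had 684 mature and 2217 precursor reads, or 3.24 precursor reads per mature read. Control had 5870 mature and 880 precursor reads there, or 0.1499, so the ratio of the balances was 21.6, against 5.53 over all loci. Chosen in untreated erh-2 alone, 328 loci gave 3.31 in erh-2 and 0.164 in control, and chosen in untreated control alone, 521 loci gave 4.07 in erh-2 and 0.149 in control. The choice by control favours loci with many control reads. These sets were added after the data were seen, and the difference from all loci has no replicate check. Over all loci, fewer had any mature read in erh-2 (1003, against 2466 in control), and more had a precursor read (2614, against 1865). Counts of loci with any read grow with depth, and the erh-2 library had 13469619 assigned reads against 9310418 in control. These locus counts were not adjusted for depth. The 502 loci with a mature read in both libraries were 50.05% of the erh-2 loci and 20.4% of the control loci.

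Locus by locus the direction was mixed but leaned the same way. Of 922 loci with 10 or more reads in all, 675 had more precursor than mature reads in erh-2 and 443 did in control. Of the 813 loci read in both libraries, the precursor share was higher in erh-2 at 420 (51.7%), lower at 115 (14.1%) and equal at 278. At 456 of the 922 loci erh-2 had precursor reads only, and so had control at 250. The 10 most-read mature features took 36.5% of mature reads in erh-2 and 17.9% in control.

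**Figure D3:**
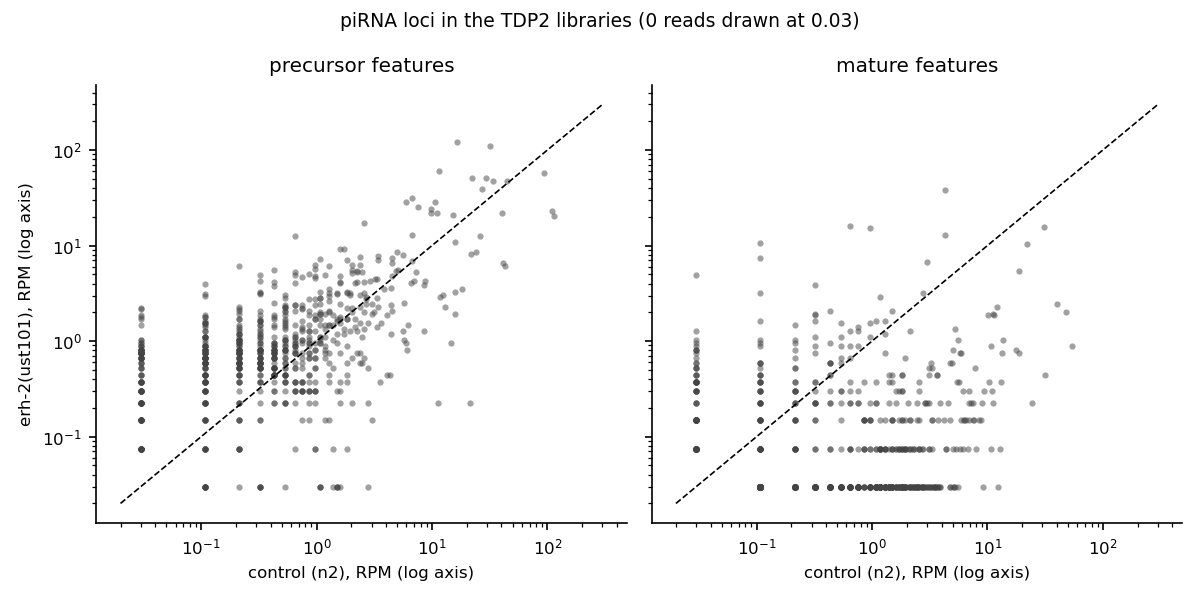
Reads per 1000000 assigned reads (RPM) of precursor features (left) and mature features (right) at 922 piRNA loci, erh-2 on the vertical and control on the horizontal axis, both logarithmic, with features of 0 reads drawn at 0.03. Precursor features scatter around the dashed line of equality, and most mature features lie below it, many of them on the line of 0 reads in erh-2.

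A ratio of 4-fold or more either way in RPM, with 30 or more reads over the 2 libraries, is used from here on to count features. Over all 16532 features with that many reads, 890 were higher in erh-2 (5.38%) and 3749 were lower (22.7%), with a median log2 ratio of −0.41. The split was 1868 to 2434 with TMM, 1925 to 2370 with non-structural reads, 1549 to 2729 with DESeq2 size factors and 10653 to 193 with microRNA reads. Of 116 mature piRNA features, 9 were higher (7.76%) and 94 were lower (81%), with a median of −4.67, whereas of 212 precursor features 44 were higher (20.8%) and 25 were lower (11.8%), with a median of 0.69.

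Most of the mature piRNAs with many reads in control had few in the erh-2 library, and some differed by far less. The feature mature_piR-cel-4817 had 12 reads in erh-2 and 499 in control, a ratio of 0.0166 (0.00853 to 0.0293). The tofu-6 alleles had 41, 0, 5 and 54 reads of it. In contrast mature_piR-cel-15879 had 211 reads in erh-2 and 289 in control (0.505, 0.421 to 0.605), and mature_piR-cel-1237 had 139 in erh-2 and 207 in control (0.464). The feature mature_piR-cel-15879 had 648 reads in the prg-1 TDP2 library, with 2 in untreated erh-2 and 7 in untreated control. For mature_piR-cel-1237 these counts were 3, 36 and 41. For mature_piR-cel-3975 the counts were 27 in erh-2 and 445 in control (0.0419), and for mature_piR-cel-2290 they were 33 in erh-2 and 374 in control (0.061). Both had no precursor read in either library. The piRNA mature_piR-cel-5504 had 6 reads in erh-2 and 294 in control (0.0141, 0.00514 to 0.0311), while its precursor piR-cel-5504 had 33 in erh-2 and 25 in control. In the untreated libraries mature_piR-cel-5504 had 497 reads in erh-2 and 871 in control. The piRNA mature_piR-cel-1569 had 0 reads in erh-2 and 116 in control, at least 55.9-fold lower against a floor of 3 reads. At the same locus, piR-cel-1569, precursor reads numbered 62 in erh-2 and 9 in control. Among the lowest ratios was that of mature_piR-cel-4319, with 3 reads in erh-2 and 225 in control (0.00922, 0.00189 to 0.0273).

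A few features listed as mature were higher in erh-2, and they were nearly unread without decapping. The most-read one, mature_piR-cel-8412, had 512 reads in erh-2 and 40 in control (8.85, 6.41 to 12.5), with 6 reads in untreated erh-2 and 1 in untreated control. Counts for mature_piR-cel-16667 were 218 in erh-2 and 6 in control, and for mature_piR-cel-16975 they were 207 in erh-2 and 9 in control. At the precursor of piR-cel-16667 erh-2 had 2 sense reads and 4641 listed antisense reads. Control had no precursor sense read there, so an antisense value would not be listed. At the precursor of piR-cel-16975 sense reads numbered 2 in each library, and antisense reads 5547 in erh-2 and 1531 in control. The feature mature_piR-cel-15578 had 144 reads in erh-2 and 1 in control (99.5, 17.6 to 3958), and its precursor piR-cel-15578 had 66 in erh-2 and 3 in control. The feature mature_piR-cel-27358 had 99 in erh-2 and 1 in control, and its precursor piR-cel-27358 had 98 in erh-2 and 10 in control. The tofu-6 alleles ranged from 1.23 to 24.7 RPM at mature_piR-cel-15578, against 10.7 RPM in erh-2 and 0.107 RPM in control.

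Precursor features differed both ways. The precursor pre_piR-cel-16862 had 1625 reads in erh-2 and 153 in control (7.34, 6.22 to 8.72), and pre_piR-cel-16552 had 1496 in erh-2 and 294 in control (3.52, 3.1 to 4). Higher still in ratio was pre_piR-cel-15768, with 169 reads in erh-2 and 6 in control (19.5, 8.76 to 53.8). In the other direction pre_piR-cel-1430 had 274 reads in erh-2 and 1066 in control (0.178), and pre_piR-cel-18932 had 310 in erh-2 and 1022 in control (0.21). Without TDP2 the direction of pre_piR-cel-1430 was the opposite, with 578 reads in erh-2 and 210 in control. Among the lowest ratios of precursors with 100 or more reads was that of pre_piR-cel-15797, with 3 reads in erh-2 and 197 in control (0.0105, 0.00215 to 0.0312). The tofu-6 alleles spread widely over these features: pre_piR-cel-16862 ranged from 21.6 to 133 RPM among them, against 121 RPM in erh-2 and 16.43 RPM in control. The loci of the precursors named here were nearly unread as mature piRNA without decapping. Each had 0 to 5 mature reads in untreated erh-2 and 0 to 2 in untreated control. No single piRNA feature passed edgeR's test after adjustment, and the smallest adjusted p among those named here was 0.0503, for mature_piR-cel-1569.

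Nearly every microRNA was lower in erh-2 on the scale of assigned reads. Of 107 microRNAs none was 4-fold higher and 83 were 4-fold lower (77.6%, against 22.7% of all features). The median log2 ratio was −3.17 (0.20 with microRNA scaling, which sets the class sum equal). The microRNA mir-58.1, of the bantam-like family, had 10280 reads in erh-2 and 131872 in control, a ratio of 0.0539. Of the mir-35 family, which is made in oocytes and early embryos, mir-35 had 17580 reads in erh-2 and 113739 in control (0.107) and mir-37 had 15236 in erh-2 and 82091 in control (0.128). Summed over 8 members the mir-35 family reached 2972 RPM in erh-2 and 24271 RPM in control, and the tofu-6 alleles ranged from 3015 to 9906 RPM. Without TDP2 the same sum was 16716 RPM in erh-2 and 12118 RPM in control.

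The difference was not even among microRNAs. In the mir-51 family mir-51 had 10361 reads in erh-2 and 50943 in control (0.141), but mir-52 had 2218 in erh-2 and 37319 in control (0.0411). The microRNA mir-73 had 384 in erh-2 and 12009 in control (0.0221, 0.0199 to 0.0245). Of the developmental timing microRNAs, let-7 had 2491 reads in erh-2 and 15111 in control (0.114) and mir-48, of the same family, had 1295 in erh-2 and 19656 in control (0.0455). The muscle microRNA mir-1 had 2477 in erh-2 and 16559 in control (0.103). The microRNA mir-43 had 0 reads in erh-2 and 108 in control, at least 52.1-fold lower. In contrast mir-58.2 had 111 reads in erh-2 and 20 in control (3.84) and mir-5549 had 105 in erh-2 and 19 in control (3.82). Copies of nearly the same sequence may share reads, so single family members are uncertain. No microRNA passed edgeR's test, in which the adjusted p of mir-43 was 0.0503 and that of mir-35 was 0.448.

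Protein-coding genes differed by strand. Sense features were more often higher in erh-2, 732 of 8071 (9.07%) against 348 lower (4.31%), with a median log2 ratio of 0.80. Antisense features were more often lower, 2717 of 6366 (42.7%) against 44 higher (0.691%), with a median of −1.85 that turns positive with microRNA scaling alone. Of 5085 genes with 30 or more reads on both strands, the antisense ratio lay below the sense ratio at 4840 (95.2%), which no scaling changes. The next 2 counts do depend on the scale, here assigned reads. At 4346 of the genes the sense ratio was above 1 and the antisense ratio below 1. At 266 the sense reads were 4-fold higher and the antisense reads 4-fold lower. Antisense reads per sense read came to 0.512 in erh-2 and 1.445 in control, and to 0.732, 0.297, 1.198 and 2.03 in the tofu-6 alleles it20, ust94, ust95 and yt2. The allele yt2 stood above control and ust94 below erh-2, so alleles of 1 gene spread more widely than erh-2 and control. The untreated libraries held 0.0362 antisense reads per sense read in erh-2 and 0.0421 in control. Whether the enzyme steps acted alike on triphosphate RNA in both TDP2 libraries was not tested.

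Genes of the small RNA pathways and of germline cell division were split by strand much as protein-coding genes were in general. On the scale of microRNA reads their antisense medians turned positive as well (1.41 in the 22G list, 1.51 in Argonautes, 1.45 in piRNA pathway and 1.51 in chromosome segregation genes). In the 22G pathway list, which holds RNA-dependent RNA polymerases and mutator proteins, the median log2 ratio was 1.36 for sense and −1.95 for antisense reads. None of 20 genes was 4-fold higher or lower on the sense strand, and 9 of 20 were lower on the antisense strand (45%, against 42.7% of all protein-coding antisense features). The list held 0.577 antisense reads per sense read in erh-2 and 4.26 in control. For rde-12, an RNA helicase of this pathway, sense reads numbered 591 in erh-2 and 157 in control (2.6), and antisense reads numbered 513 in erh-2 and 747 in control (0.475). The polymerase gene rrf-1, chosen after its values were seen, had 71 antisense reads in erh-2 and 311 in control (0.158).

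Argonaute genes had 4-fold lower antisense reads at 6 of 13 (46.2%, against 42.7% of all protein-coding genes). The sense reads of 1 of 15 (6.67%, against 9.07%), alg-5, were 4-fold higher, with 578 in erh-2 and 73 in control (5.47). Antisense reads of hrde-1, the nuclear Argonaute of inherited silencing, numbered 539 in erh-2 and 1815 in control (0.205). Its sense reads numbered 1831 in erh-2 and 339 in control (3.73, 3.32 to 4.2). The germline Argonaute gene wago-4 had 926 antisense reads in erh-2 and 1748 in control (0.366), and csr-1, which binds small RNAs of expressed germline genes, had 547 in erh-2 and 961 in control (0.393). Over the list antisense reads per sense read were 0.480 in erh-2 and 3.32 in control.

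Of the piRNA pathway genes, 2 of 22 were 4-fold higher on the sense strand and 9 of 21 were lower on the antisense strand, with medians of 0.81 and −1.92. Both shares and medians lie near those of all protein-coding genes (9.07% and 42.7%, with medians of 0.80 and −1.85). The 2 were tofu-4, with 84 sense reads in erh-2 and 12 in control (4.84), and pid-4, with 101 in erh-2 and 12 in control (5.82). Sense reads of prg-1 numbered 304 in erh-2 and 201 in control (1.05, 0.872 to 1.26), and those of pid-1 numbered 459 in erh-2 and 268 in control (1.18). Among partners of ERH-2, chosen after their values were seen, tofu-6 had 86 sense reads in erh-2 and 118 in control (0.504), pid-3 had 104 in erh-2 and 52 in control (1.38), and tost-1 had 71 in erh-2 and 36 in control (1.36). Antisense reads of prg-1 numbered 763 in erh-2 and 1325 in control (0.398), and those of pid-5 numbered 392 in erh-2 and 1322 in control (0.205). The deadenylase gene parn-1 kept more, with 1323 antisense reads in erh-2 and 1123 in control (0.814, which turned above 1 with every other scaling run).

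The list of chromosome segregation genes had 18 of 39 genes 4-fold lower on the antisense strand and 3 of 39 higher on the sense strand, with medians of −1.86 and 0.87. The shares of 46.2% and 7.69% lie near those of all protein-coding genes, 42.7% and 9.07%. The kinesin gene klp-7 had 1704 antisense reads in erh-2 and 3482 in control (0.338), and the microtubule regulator gene cls-2 had 2267 in erh-2 and 2428 in control (0.645). The kinetochore genes bub-1 and knl-3, chosen after their values were seen, had 238 and 267 antisense reads in erh-2, against 902 and 994 in control. On the sense strand zen-4, a kinesin of the central spindle, had 1257 reads in erh-2 and 139 in control (6.25, 5.24 to 7.5). The other sense genes past 4-fold were coh-3, a meiotic cohesin, with 159 in erh-2 and 24 in control, and zyg-1, a centriole kinase, with 162 in erh-2 and 25 in control. The tofu-6 alleles ranged from 28 to 102.6 RPM at zen-4, against 93.3 RPM in erh-2 and 14.9 RPM in control. The cyclin gene cyb-3 had 1055 sense reads in erh-2 and 617 in control (1.18).

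**Figure D4:**
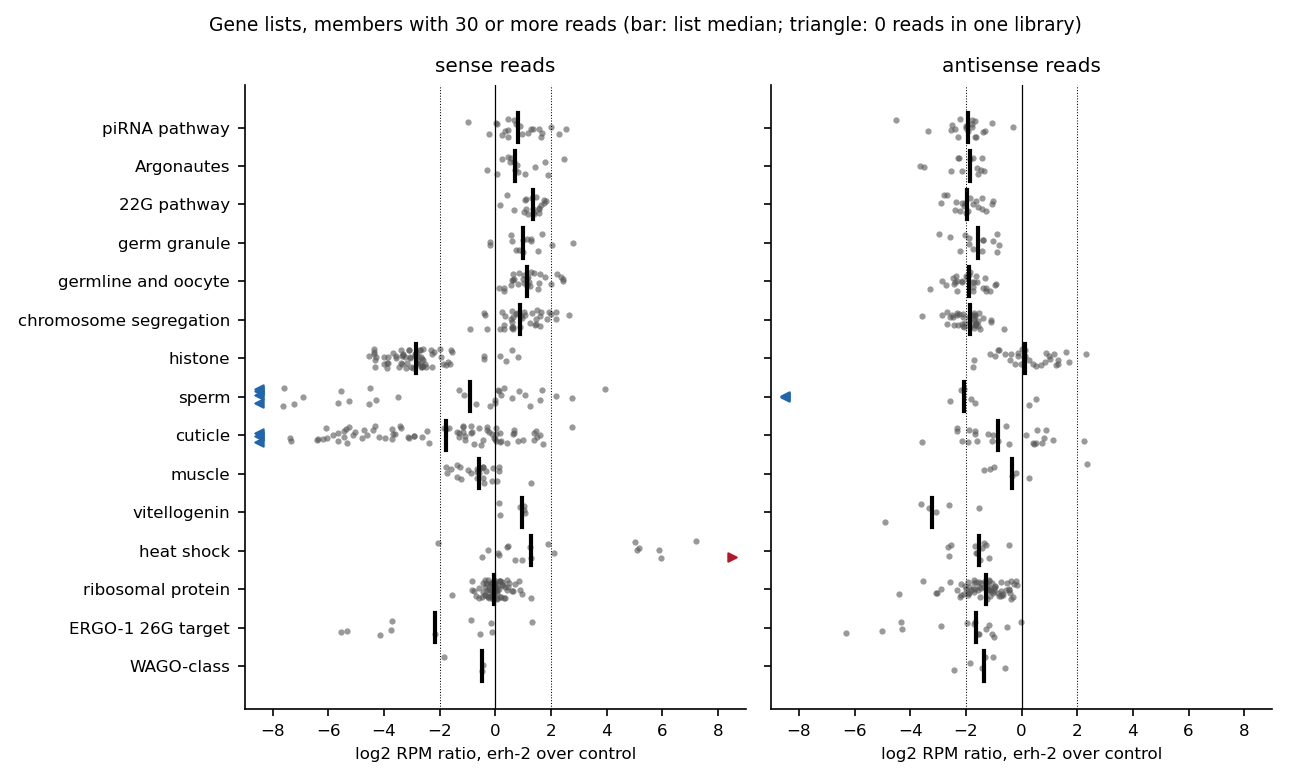
Log2 RPM ratio of erh-2 over control for members of 15 gene lists with 30 or more reads, sense reads left and antisense reads right; each point is 1 gene, the thick bar is the list median, dotted lines mark 4-fold, and triangles at the edge mark genes with 0 reads in 1 library. Lists of small RNA pathway, germ granule, oocyte and division genes lie right of 0 for sense and left of 0 for antisense reads, and histone genes lie left of 0 for sense and around 0 for antisense reads.

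Messages of the germline and oocyte lay above equality on the sense strand, as did those of most protein-coding genes. Their list had a median log2 ratio of 1.13 over 30 genes (0.80 over all), with 5 of them 4-fold higher (16.7%, against 9.07%) and none lower (against 4.31%). On the antisense strand 12 of 28 were lower (42.9%, against 42.7%). Summed sense reads came to 2798 RPM in erh-2 and 1406 RPM in control, with 1774 to 2943 RPM in the tofu-6 alleles. Among the most-read was cbd-1, of the eggshell, with 4543 reads in erh-2 and 1548 in control (2.03). Past 4-fold were pos-1 (1731 in erh-2 and 256 in control) and spn-4 (1688 in erh-2 and 216 in control), which encode RNA-binding proteins of the early embryo, and mex-6 (861 in erh-2 and 111 in control), a polarity factor. Antisense reads of mex-6 numbered 25 in erh-2 and 170 in control (0.102). Of 15 germ granule genes mip-2 and meg-2 were 4-fold higher (13.3%, against 9.07% of all), mip-2 with 262 sense reads in erh-2 and 26 in control. On the antisense strand 4 of 14 germ granule genes were 4-fold lower (28.6%, against 42.7%). The germ granule helicase gene glh-1 had 1479 sense reads in erh-2 and 679 in control (1.51).

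Targets of other small RNA branches were compared as well. Of 6 genes of the WAGO class, silenced through 22G-RNAs, 1 was 4-fold lower in antisense reads (16.7%, against 42.7% of protein-coding antisense features). The median log2 ratio of the class was −1.36, against −1.85 over those features. The lower gene was Y47H10A.5, with 3467 antisense reads in erh-2 and 12950 in control (0.185). Other members lay nearer to equality, such as bath-45 with 6786 antisense reads in erh-2 and 11628 in control (0.403) and linc-22 with 3767 in erh-2 and 9359 in control (0.278). Of 16 targets of ERGO-1, an Argonaute of 26G-RNAs, 5 were 4-fold lower in antisense reads and none was higher, with a median log2 ratio of −1.63 (1.74 with microRNA scaling). That is 31.25% lower, against 42.7% and a median of −1.85 over all protein-coding antisense features. Among the lowest ratios was that of C40A11.10 (symbol mir-8199 in the annotation), with 9 antisense reads in erh-2 and 490 in control (0.0127), followed by Y116F11A.1, with 68 in erh-2 and 1508 in control (0.0312). The target E01G4.5 had 3391 in erh-2 and 9091 in control (0.258). Sense reads of these targets were 4-fold lower at 6 of 11 (54.5%, against 4.31% of all), and their antisense reads per sense read were 31.9 in erh-2 and 31.1 in control. In the tofu-6 alleles Y116F11A.1 ranged from 3.25 to 262 RPM, against 5.05 RPM in erh-2 and 162 RPM in control.

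Antisense reads at long intergenic noncoding genes (lincRNAs) were 4-fold lower at 15 of 39 (38.5%) and higher at 2 (5.13%). Of all features 22.7% were lower and 5.38% higher, and of protein-coding antisense features 42.7% and 0.691%. The lincRNA median log2 ratio was −1.53, which turned to 1.83 with microRNA scaling. The most-read, linc-29, had 6180 in erh-2 and 14438 in control (0.296). Where both libraries had reads, low antisense ratios were those of linc-12, with 4 in erh-2 and 222 in control (0.0125), and linc-68, with 8 in erh-2 and 420 in control (0.0132). The gene linc-76 went the other way, with 218 in erh-2 and 11 in control (13.7, 7.51 to 27.8); protein-coding genes overlap it in both orientations, so these reads may be sense reads of its neighbour. Of protein-coding genes with antisense reads, Y43B11AL.1 had 3 in erh-2 and 258 in control (0.00804), and B0513.4 had 239 in erh-2 and 5 in control (33, 14 to 102.7), where the tofu-6 alleles ranged from 0.482 to 71.5 RPM.

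With edgeR's quasi-likelihood test over the 8 TDP2 libraries, 3 of 22467 features rose in erh-2 (0.0134%) and 8 fell (0.0356%), and 2414 (10.7%) had an unadjusted p under 0.05. The 3 that rose are heat shock genes. The inducible chaperone gene hsp-70 had 194 sense reads in erh-2 and 0 in control, at least 44.7-fold higher, with 5, 65, 7 and 16 in the tofu-6 alleles it20, ust94, ust95 and yt2 (edgeR, adjusted p = 0.0308). Its fitted log2 change of 10.44 ± 2.22 depends on the prior count. The Hsp70-family gene F44E5.5 had 686 reads in erh-2 and 5 in control (94.8, 40.4 to 293; log2 change 6.97 ± 1.57, edgeR, adjusted p = 0.0308). The small heat shock gene hsp-16.2 had 216 in erh-2 and 1 in control (149, 26.5 to 5924; 7.48 ± 1.73, edgeR, adjusted p = 0.0395). All 3 were lost when the tofu-6 allele it20 or ust95 was left out, where edgeR called no feature at all, with 1232 and 1636 features at an unadjusted p under 0.05.

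Several other heat shock genes lay in the same direction without passing the test. Of 20 genes in the heat shock list 8 were 4-fold higher (40%, against 9.07% of all protein-coding sense features). Of these 8, 2 had passed edgeR's test. The 1 lower gene (5%, against 4.31%) was hsp-12.2, with 10 reads in erh-2 and 29 in control. The small heat shock genes hsp-16.41 and hsp-16.48 had 1127 and 259 reads in erh-2, against 23 and 3 in control. Outside the list, and chosen after their values were seen, F44E5.4, a close copy of F44E5.5, had 1536 reads in erh-2 and 23 in control (46.2), and aip-1, induced by arsenite, had 864 in erh-2 and 11 in control (54.3). The mitochondrial chaperone genes hsp-6 and hsp-60 had 2700 and 3196 reads in erh-2, against 430 and 597 in control (4.34 and 3.7). The constitutive chaperone genes stayed near equality: hsp-1 had 2485 in erh-2 and 1567 in control (1.1, 1.03 to 1.17) and hsp-90 had 2628 in erh-2 and 1368 in control (1.33). The pairs hsp-16.1 with hsp-16.11 and hsp-16.48 with hsp-16.49 are near-identical copies that may share reads.

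The tofu-6 alleles lay between erh-2 and control for most of these genes. At hsp-70, hsp-16.2, hsp-16.41, F44E5.4, F44E5.5 and aip-1 all 4 alleles were above control and below erh-2 in RPM. At hsp-6 all 4 were above control and 1 was above erh-2. For F44E5.5 the alleles had 4.66, 18.3, 2.72 and 8.58 RPM, against 50.9 RPM in erh-2 and 0.537 RPM in control. In the untreated libraries F44E5.5 had 1524 reads in erh-2 and 16 in control, so the direction was the same without decapping. In the prg-1 TDP2 library hsp-70 and hsp-16.2 had 0 reads, and in the pics-1 library they had 19 and 12 reads.

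**Figure D5:**
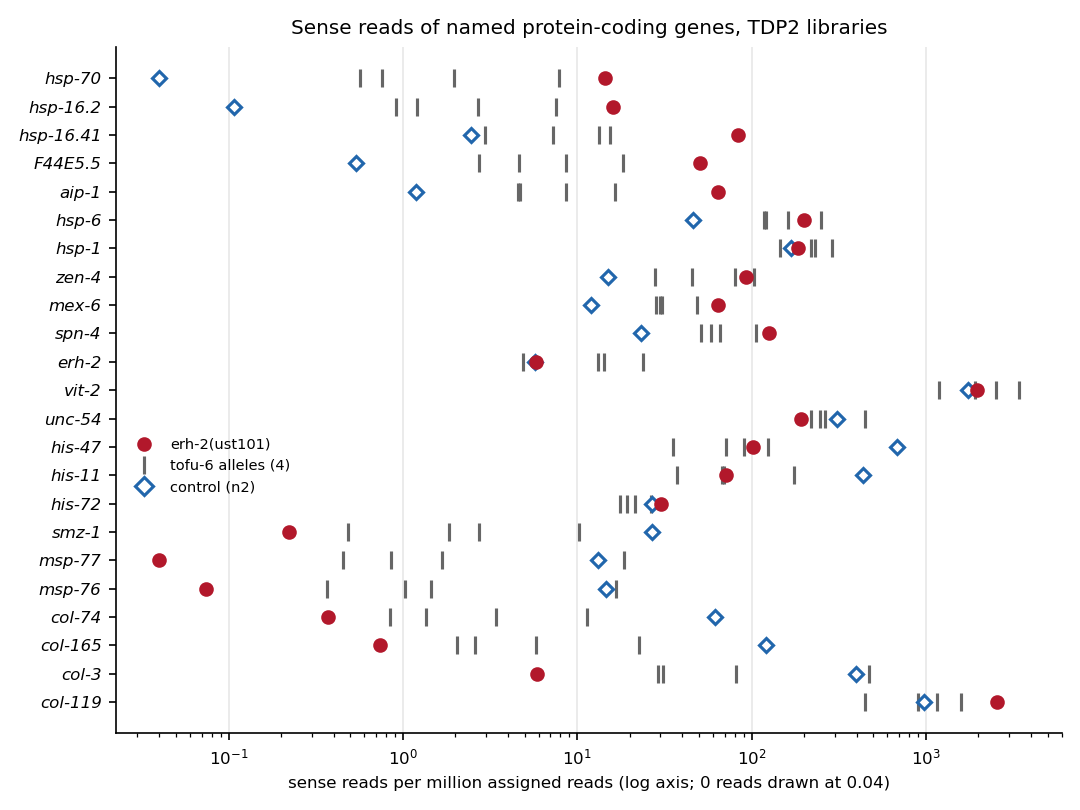
Sense reads per 1000000 assigned reads (logarithmic axis, 0 reads drawn at 0.04) of 23 protein-coding genes in erh-2 (filled circles), the 4 tofu-6 alleles (vertical ticks) and control (open diamonds). The heat shock genes hsp-70, hsp-16.2, hsp-16.41 and F44E5.5, and aip-1, lie highest in erh-2 with the alleles between it and control. At hsp-6 1 allele lies above erh-2. Sperm genes and the collagen genes col-74 and col-165 lie lowest in erh-2.

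The 8 features that fell included a sperm gene and 2 collagen genes. The major sperm protein gene msp-77 had 0 sense reads in erh-2 and 122 in control, at least 58.8-fold lower (edgeR, adjusted p = 0.0308), while the tofu-6 alleles had 4, 14, 171 and 7. The collagen gene col-165 had 10 in erh-2 and 1126 in control (0.00614, 0.00294 to 0.0113; log2 change −6.89 ± 1.53, edgeR, adjusted p = 0.0308). The collagen gene col-74 had 5 in erh-2 and 574 in control (0.00602; −6.90 ± 1.57, edgeR, adjusted p = 0.0308). Y102A11A.5 had 6 in erh-2 and 901 in control (0.0046; −7.29 ± 1.57, edgeR, adjusted p = 0.0308). The other 4 had 0 reads in erh-2: Y37A1B.7 with 147 in control, linc-17 with 124, C33F10.1 with 85 and the antisense strand of the snoRNA gene Y41D4B.36 with 82. They were at least 70.9-fold, 59.8-fold, 41-fold and 39.5-fold lower, with adjusted p-values from edgeR of 0.0308, 0.0308, 0.0436 and 0.0471. Y41D4B.36 lies within a protein-coding gene of the same orientation, and the tofu-6 alleles had 0, 0, 4 and 105 reads there.

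Sperm genes divided into groups. Major sperm protein and spermatid genes were low in erh-2: msp-76 had 1 read in erh-2 and 137 in control, smz-1 had 3 in erh-2 and 251 in control (0.00826), and nspd-1 had 9 in erh-2 and 289 in control (0.0215). Members of the nspc family in the same list were not: nspc-20 had 366 in erh-2 and 237 in control (1.07, 0.904 to 1.26), and nspc-4 had 44 in erh-2 and 2 in control. Of 34 sperm list genes with 30 or more reads 15 were 4-fold lower (44.1%, against 4.31% of all) and 3 were higher (8.82%, against 9.07%), with a median log2 ratio of −0.91 (2.46 with microRNA scaling), and of all 113 with a read in any library 6 had none in both. Summed, the list reached 139.9 RPM in erh-2 and 309 RPM in control, with 126 to 322 RPM in the tofu-6 alleles. The summed level thus varied among alleles of tofu-6 over a range that holds both erh-2 and control, and ust95 had the most msp-77 reads of the 4. Near-identical copies make single msp genes uncertain.

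Cuticle genes had 40 of 83 members 4-fold lower in sense reads (48.2%, against 4.31% of all protein-coding sense features) and 1 higher (1.20%, against 9.07%), with a median log2 ratio of −1.77, or 1.60 with microRNA scaling. Beside col-165 and col-74, col-3 had 79 reads in erh-2 and 3703 in control (0.0147) and col-117 had 82 in erh-2 and 3732 in control (0.0152), and dpy-14, a collagen needed for body shape, had 8 in erh-2 and 403 in control (0.0137); these 3 were chosen after their values were seen. The tofu-6 alleles ranged from 29.2 to 473 RPM at col-3, against 5.87 RPM in erh-2 and 398 RPM in control. In contrast col-119 had 34647 reads in erh-2 and 9119 in control (2.63, 2.57 to 2.69), and col-103, the member 4-fold higher, had 1272 in erh-2 and 131 in control (6.71). Because col-119 carried much of the list, its summed reads were close: 4594 RPM in erh-2 and 5170 RPM in control. The list also holds dosage compensation genes that carry dpy names.

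Histone genes, most of them of the replication-dependent kind, were low on the sense strand. Of 70 genes in the histone list, which also holds his-72 and his-24, 56 were 4-fold lower (80%, against 4.31% of all) and none was higher, with a median log2 ratio of −2.84 that turned to 0.53 with microRNA scaling. The histone gene his-47 had 1365 reads in erh-2 and 6399 in control (0.147, 0.139 to 0.156), his-11 had 959 in erh-2 and 4082 in control (0.162), and his-18 had 909 in erh-2 and 3889 in control (0.162). Summed, the list reached 654 RPM in erh-2 and 4034 RPM in control, and the tofu-6 alleles reached 337 to 1075 RPM. The untreated libraries held 201 RPM in erh-2 and 1382 RPM in control. Antisense reads did not follow: their median was 0.12 over 32 genes, with 1 gene, his-62, 4-fold higher (36 reads in erh-2 and 5 in control). Antisense reads per sense read of the list were 0.650 in erh-2 and 0.104 in control. The variant genes his-72 and htz-1 lay nearer to equality, with his-72, of the H3.3 type, at 406 in erh-2 and 249 in control (1.13) and htz-1, of the H2A.Z type, at 485 in erh-2 and 208 in control (1.61). The linker-like gene hil-7 had 73 in erh-2 and 1356 in control (0.0372), and the linker histone gene his-24 had 3939 antisense reads in erh-2 and 2531 in control (1.08). Many core histone genes are near-identical, so the list is firmer than any member.

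Vitellogenin, muscle and ribosomal protein genes had no sense member past 4-fold. The 6 vitellogenin genes, which encode yolk proteins made in the intestine, had a median log2 ratio of 0.96 on the sense strand, against 0.80 over all protein-coding sense features. The most-read were vit-2, with 26614 reads in erh-2 and 16169 in control (1.14), and vit-6, with 23383 in erh-2 and 14908 in control (1.08). Their antisense reads were 4-fold lower at 5 of 6 (83.3%, against 42.7% of all), from 44 reads in erh-2 and 274 in control in all. The 26 muscle genes had a median of −0.59 (2.78 with microRNA scaling); the thin-filament gene pat-10 had 5622 in erh-2 and 3558 in control (1.09) and the myosin gene unc-54 had 2600 in erh-2 and 2860 in control (0.628). The 75 ribosomal protein genes had a median of −0.06 (0.38 with TMM, 0.40 with non-structural reads and 3.31 with microRNA reads), while 12 of 69 were 4-fold lower in antisense reads (17.4%, against 42.7% of all). The ribosomal protein gene rpl-12 had 7077 sense reads in erh-2 and 2507 in control (1.95).

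Structural RNA made up most of the erh-2 library, and 4-fold differences were uneven over its classes. Over all features 5.38% were 4-fold higher and 22.7% lower. Of 79 snRNA genes 1 was 4-fold higher (1.27%), C27H5.11, with 6927 reads in erh-2 and 858 in control (5.58), and the most-read one, R05D7.6, had 94993 in erh-2 and 19387 in control (3.39). The snRNA M163.13 went the other way, with 22143 in erh-2 and 44596 in control (0.343). Of 24 ribosomal RNA (rRNA) genes 2 were 4-fold higher (8.33%) and 1 was lower (4.17%). The rRNA genes rrn-3.1 and rrn-1.1 had 2079926 and 1140946 reads in erh-2, against 909138 and 345585 in control (1.58 and 2.28). The 5S gene rrn-4.3 had 26476 in erh-2 and 61370 in control (0.298). Reads antisense to rRNA made up 0.0658% in erh-2 and 0.00491% in control, a ratio of 13.4, and the tofu-6 alleles ranged up to 0.0459%. That ratio was 1.13 with the strands of 7 rRNA entries as listed in the feature tables. Of 463 tRNA genes none was 4-fold higher (0%) and 195 were lower (42.1%). The tRNA gene ZK783.t1, of a gene family with near-identical copies, had 1147 reads in erh-2 and 14649 in control (0.0541). Of 144 small nucleolar RNA (snoRNA) genes, which guide the modification of other RNAs, 7 were 4-fold higher (4.86%) and 21 were lower (14.6%). Among the most-read, T26A8.6 had 17010 reads in erh-2 and 3670 in control (3.2), and D1007.20, among the lowest ratios, had 52 in erh-2 and 662 in control (0.0543).

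Mitochondrial transcripts took 1.825% of reads in erh-2 and 0.906% in control, a ratio of 2.01, but single ones diverged. The transcript MTCE.7 had 106073 reads in erh-2 and 11119 in control (6.59) and MTCE.33 had 70862 in erh-2 and 12270 in control (3.99). In contrast MTCE.13 had 792 in erh-2 and 15037 in control (0.0364) and MTCE.14 had 10 in erh-2 and 513 in control (0.0135). Of 34 mitochondrial features 4 were 4-fold higher (11.8%, against 5.38% of all features) and 14 were lower (41.2%, against 22.7%). The listed transposon gene F44E2.2 had 1609 sense reads in erh-2 and 143 in control (7.78, 6.55 to 9.29), above the tofu-6 range of 45.8 to 82.1 RPM at 119.5 RPM in erh-2 and 15.4 RPM in control. The noncoding gene F08G2.13 had 49104 sense reads in erh-2 and 189521 in control (0.179).

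How far apart 2 libraries of 1 mutated gene can lie was read from the tofu-6 alleles. Between erh-2 and control 28.1% of features were 4-fold or more apart, and between pairs of tofu-6 alleles 6.59% to 33.8% were (6 pairs). The widest pair was ust94 and yt2, and it was the only pair above erh-2 against control. Nothing in the labels says that the alleles are separate cultures grown side by side, so edgeR's p-values rest on differences between these libraries that may be partly technical.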

How the data were processed

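Small RNA libraries of late young adult worms were analysed from the read counts per annotated feature and strand that the authors deposited, in units of counts of assigned reads. Per the submitters' processing notes, Bowtie2 aligned the reads. Not given in the sources used here are the Bowtie2 version, the build, the counting tool and how reads matching several places were treated. Of 45510 gene identifiers, 44852 were found in the WBcel235 annotation, which served for names and neighbours only.

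Counts were scaled to reads per 1000000 assigned reads (13469619 in erh-2 and 9310418 in control; 7928249 to 9185339 in the other TDP2 libraries). A ratio is erh-2 over control with an exact conditional binomial (Clopper-Pearson) 95% interval, which covers counting error only. Against 0 reads, the ratio is a bound from a floor of 3 reads in that library. With 1 library a side there is no replicate and no p-value of the ratio itself. The strands of 7 rRNA entries were exchanged, since only then did the deposited class totals match. Antisense values of piRNA features, listed only where a sense read exists, were left out of ratios and fits (0.215% of reads in erh-2 and 0.139% in control).

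edgeR 4.0.16 (R 4.3.3, limma 3.58.1) fitted all 8 TDP2 libraries as 5 groups with TMM normalization, quasi-likelihood tests and Benjamini-Hochberg adjustment over 22467 features that reached 10 reads in at least 1 library and 30 in the sum of all. The spread comes from the 4 tofu-6 alleles taken as 1 group (3 residual degrees of freedom, median biological coefficient of variation 0.556), so allele differences count as error. On simulated data the fit recovered 63 of 116 changes of 6 on the log2 scale and 8 of 84 changes of 4, with 3 false calls among 21389 features. The simulation gave every feature the same spread and every library the same mean profile apart from the changes. Changes were placed only in features above a minimum of reads, so these rates need not hold for the real libraries. DESeq2 1.42.0 was an alternative, as were other scalings, filters, thresholds and leaving out each tofu-6 allele. Ratios and figures were made with Python 3.11.15, pandas 2.3.3, scipy 1.17.1 and matplotlib 3.10.9.

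Features were named by rule: per class and strand the 5 with most reads, and the 5 highest and 5 lowest ratios among those with 100 or more reads; every edgeR call; erh-2; and up to 4 members of each gene list with most reads. Others named, such as list members past 4-fold, lincRNA and mitochondrial transcripts, were chosen after their values were seen. The members and gene lists were chosen with earlier results of these data known.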

Additional observations from a re-analysis of the deposited data

Results flagged for a closer look

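Among the 4 tofu-6 alleles, 20 values were examined for 1 allele far from the other 3, and 4 had one. Chance gives about 1 in 20 for independent values. The values examined were not independent, since they held class shares of the same libraries and genes called by edgeR. The count of 4 therefore cannot be judged against that rate. The allele it20 stood apart with the highest share of reads antisense to rRNA, 0.0459% of assigned reads, and with the highest snRNA share, 11.7%. For both, erh-2 was higher still (0.0658% and 16.3%) and control lower (0.00491% and 5.65%), while prg-1 had 0.0241% and 21.8%. The allele ust95 stood apart at msp-77, with 18.6 RPM against 0 RPM in erh-2 and 13.1 RPM in control, and at C33F10.1, with 10.3 RPM against 0 RPM in erh-2 and 9.13 RPM in control. Both are genes that fell in erh-2 in edgeR's test.

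The untreated libraries, outside the comparison of TDP2 libraries, also held the heat shock reads. There hsp-70 had 303 reads in erh-2 and 0 in control, hsp-16.2 had 188 in erh-2 and 1 in control, and F44E5.5 had 1524 in erh-2 and 16 in control. Each strain has 1 untreated library, so these differences have no replicate check.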

How the results depend on the processing

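With 1 library a side, the counting intervals understate the error, and depth limits single features more than classes. The count of features 4-fold higher and lower in erh-2 was 890 and 3749. It was 1925 and 2370 with non-structural scaling, 1868 and 2434 with TMM, 1549 higher with DESeq2 size factors, and 10653 and 193 with microRNA scaling. It was 545 and 2043 with 100 or more reads, 1548 and 5883 with no minimum, and 3816 and 6793 at 2-fold. A change of scale moves every log2 ratio by the same amount.

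Against 3 higher and 8 lower calls, edgeR gave 5682 higher with microRNA scaling, 4 lower without a filter, and 8 and 21 with only erh-2, the tofu-6 alleles and control. It gave 13 and 25 with piRNA antisense values kept and 9 and 33 without prg-1, both chosen after seeing the data. It gave 0 and 0 with DESeq2 size factors, with 2054 features at an unadjusted p under 0.05. Leaving out 1 tofu-6 allele gave 0 to 18 higher and 0 to 57 lower, and 0 and 0 without it20 or ust95. DESeq2's Wald test gave 2 higher and 15 lower, and none of the 11 edgeR calls had an adjusted p there. Adjusted p-values of the 11 ranged from 0.00691 to 0.641 over the edgeR alternatives; the cause was not tested.

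Class ratios with non-structural scaling were 0.306 for mature piRNA, 1.69 for precursors, 0.133 for microRNA, 0.660 for antisense and 1.86 for sense protein-coding reads. Per microRNA read they were 2.29, 12.7, 4.95 and 13.97 for mature piRNA, precursor, antisense and sense reads, 29.8 for snRNA and 2.06 for tRNA. Per snRNA read, chosen after seeing the data, they were 0.0769 for mature piRNA, 0.426 for precursors, 0.0335 for microRNA, 0.166 for antisense reads, 0.469 for sense reads and 0.0691 for tRNA. With rRNA strands as listed the ratios were 1.52 for rRNA and 1.13 for rRNA antisense. Loci with a lower precursor share in erh-2 were 21.95% at 30 or more reads. At 2-fold, 25.5% to 59.5% of features were apart between tofu-6 alleles and 64.2% between erh-2 and control. The ratio of precursor reads per mature read was 5.35 to 5.62 under 3 alternatives. It was 27.4, 20.2 and 21.6 with only loci of 10 or more mature reads in untreated control, in untreated erh-2 and in both, chosen after seeing the data.

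With microRNA scaling, 38 of 127 named features turned to a higher value in erh-2, and 19 of them had been 4-fold lower. The log2 ratios of those 19 were 0.87 for pre_piR-cel-1430 and 1.11 for pre_piR-cel-18932; 0.14, 0.40, 0.54, 0.0928 and 0.23 for mir-35, mir-37, mir-51, mir-1 and let-7; and 0.89 for F08G2.13 and 1.30 for hsp-12.2. Antisense values were 1.08 for pid-5, 1.08 for hrde-1, 0.91 for bub-1, 0.94 for knl-3, 0.0682 for mex-6, 0.70 for rrf-1 and 0.93 for Y47H10A.5. Sense values of his-47, his-11 and his-18 were 0.60, 0.74 and 0.74. Under the other scalings antisense reads of parn-1 turned to 0.16 (non-structural), 0.14 (TMM) and 0.0338 (DESeq2), and no other named feature turned. No paired analysis was possible because erh-2 and control have 1 library each and share no further replicate number.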
